A study of Sus scrofa with 5 samples.

Results

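The LIF and IL6 family of cytokines, their receptors and the STAT3 arm of their signalling were described by 8 listed genes: the ligand LIF, the receptor chains LIFR, IL6R and CNTFR, the shared signal transducer IL6ST, the kinase JAK2, the transcription factor STAT3 and the feedback inhibitor SOCS3. The genes were chosen by name for their place in the pathway, with earlier results of these data known. Of the 8 genes, 7 were found under their own symbol among the 30029 genes of the single-cell count files. LIFR was not, and it was read from 2 neighbouring loci that the annotation names as leukemia inhibitory factor receptor, LOC397451 and LOC102167255, so 9 gene rows are described.

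Cytokines of this family bind a specific receptor chain (LIFR, IL6R or CNTFR) and signal through IL6ST, also called gp130. JAK kinases bound to the receptor then phosphorylate STAT3, which enters the nucleus and activates its targets, among them SOCS3, which in turn blocks the receptor complex. In mouse embryonic stem cells the LIF and STAT3 axis maintains naive pluripotency, and the same receptors serve many tissues outside the embryo.

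Porcine blastoids, blastocyst-like structures assembled from porcine embryonic stem cells (pESCs), were measured by droplet scRNA-seq on day 6 in 2 libraries. The blastoids were picked by hand and dissociated, so each library pools cells of several structures. The pESCs themselves were measured by bulk RNA-seq in 3 libraries. They were grown in 4FIXY medium on mouse embryonic fibroblast feeder cells, and the methods give parthenogenetic blastocysts as their source. The columns of the 3 libraries carry the names IVFP25, PA_4P7 and PAP25, of which 1 begins with IVF and 1 ends in P7 where the others end in P25. Every cell measured had been given ligand: 4FIXY medium contains human IL-6 and soluble IL-6 receptor alpha together with activin A and IGF1, and the iBlastoid medium used for the later days of blastoid formation contains IL-6, soluble IL-6 receptor alpha and LIF. No sample without these cytokines was analysed here, so the values describe expression under stimulation and give no response to it.

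Barcodes with at least 11223 UMIs (unique molecules) in library 1 and 9805 in library 2 were taken as cells. This gave 7369 and 8175 cells with medians of 29728 and 27588 UMIs, and 9 cell barcodes occurred in both libraries. Cells were gated on POU5F1, CRABP1, GABRP, TP63 or COL3A1 with at least 4 UMIs and at least 100 CPM (UMIs per 1000000) of that gene. A gate was passed by 4918 cells (66.7%) in library 1 and 5413 (66.2%) in library 2. More than 1 gate was passed by 1395 and 1292 cells, of which 1015 and 836 had passed both GABRP and TP63, and such a cell was placed by the gene that was highest for its range. No doublet caller was run. The gates held 856 and 1385 cells for POU5F1, 361 and 622 for CRABP1, 1723 and 1708 for GABRP, 1367 and 1222 for TP63, and 611 and 476 for COL3A1. Median depth moved with the gate, from 39478 and 35957 UMIs in the POU5F1 gate to 22816 and 20354.5 in the COL3A1 gate.

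The gates are named here by their gene only, since their marker genes did not all go with 1 cell type. The POU5F1 gate held the pluripotency genes DNMT3B (165 and 233 CPM in libraries 1 and 2) and UTF1 (189 and 193 CPM), while ZIC2 of the same list (87.1 and 89.1 CPM) was higher in the CRABP1 gate (114 and 112 CPM), as was ETV5 (85.4 and 96.4 CPM there). The trophectoderm keratin KRT8 was high in the POU5F1 gate too (3927 and 3496 CPM). It was below its level in GABRP (7276 and 6759 CPM) and TP63 (4996 and 4723 CPM), and it was no trait of the POU5F1 gate. The COL3A1 gate held TWIST1 (585 and 620 CPM) of the mesenchyme list together with GATA6 (179 and 189 CPM) and GATA4 (77.4 and 72.3 CPM) of the hypoblast list, while FOXA2 of that list was at 0 in both libraries. In the TP63 gate KRT5, a basal keratin, was at 0.257 and 0.194 CPM. What part other cell types and depth had in a gate's values was not tested.

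LIFR is one of the members whose identity in the pig genome needs care. On Sscrofa11.1 (susScr11), LOC397451 is annotated at chr16:23685565-23760062 on the minus strand with 20 exons, and its protein is marked as low quality. LOC102167255 lies at chr16:23627700-23672724 on the same strand with 14 exons, and 12840 bases separate the loci. Their transcripts share a stretch of 1856 aligned bases of which 1840 (99.1%) are identical. Reads from that stretch could be split between the loci or left out as ambiguous, so the level of each locus is uncertain and the loci are not independent of each other. The stretch covers bases 1 to 333 of the last 500 bases of LOC397451, while the last 500 bases of LOC102167255 had no match. The remaining members have 1 locus each: LIF at chr14:47221540-47239513, IL6R at chr4:95322426-95381393, CNTFR at chr10:32211809-32251412, IL6ST at chr16:35101304-35151832, JAK2 at chr1:216849744-217002310, STAT3 at chr12:20407316-20471091 and SOCS3 at chr12:3643832-3647015.

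SOCS3 is a textbook STAT3 target, and the 250 bases upstream of its annotated start were therefore searched for the STAT motif TTCNNNGAA, which reads the same on both strands, and are shown with those of IL6ST and CNTFR, the other members with 1 locus that were higher in the COL3A1 gate. Capitals mark the motif. The sequences are from the RefSeq genome Sscrofa11.1, 5′ to 3′ on the strand of the gene.
SOCS3, chr12:3643582-3643831, plus strand: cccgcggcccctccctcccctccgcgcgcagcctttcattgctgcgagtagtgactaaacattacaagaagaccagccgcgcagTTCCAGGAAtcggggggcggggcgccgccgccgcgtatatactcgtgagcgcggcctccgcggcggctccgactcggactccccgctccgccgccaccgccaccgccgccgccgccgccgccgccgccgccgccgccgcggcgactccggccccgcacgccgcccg
IL6ST, chr16:35151833-35152082, minus strand: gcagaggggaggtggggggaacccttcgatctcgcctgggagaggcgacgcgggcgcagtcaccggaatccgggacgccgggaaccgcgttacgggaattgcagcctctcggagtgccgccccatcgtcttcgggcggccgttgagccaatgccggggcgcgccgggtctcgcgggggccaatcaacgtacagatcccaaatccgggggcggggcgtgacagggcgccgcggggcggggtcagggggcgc
CNTFR, chr10:32211559-32211808, plus strand: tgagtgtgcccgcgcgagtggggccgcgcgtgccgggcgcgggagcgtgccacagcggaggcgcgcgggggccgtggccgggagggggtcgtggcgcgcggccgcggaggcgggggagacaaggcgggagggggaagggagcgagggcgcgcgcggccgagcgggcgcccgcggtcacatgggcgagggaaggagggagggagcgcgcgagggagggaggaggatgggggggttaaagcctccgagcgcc
The motif occurred in 1 of the 9 windows, as TTCCAGGAA 166 bases upstream of the SOCS3 start. Of 19559 protein-coding genes, 1196 (6.11%) held it in a window of the same length. A match of letters is not a measured binding site, and a window without one says nothing about STAT3 binding.

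The question put to the blastoids was in which of the gated cells each chain of this pathway was found. UMIs were summed per gate and library, which gave 10 sums, and each gate was compared with the mean of the other 4 by the quasi-likelihood test of edgeR, with p-values adjusted by Benjamini-Hochberg over 18930 genes, all 9 rows among them. A difference among the 5 gates was called for 8 of the 9 rows and for 76.7% of all genes. The gates differ widely across the genome: 53.9% of all genes were called for the POU5F1 gate, 38.9% for CRABP1, 47.6% for GABRP, 44.7% for TP63 and 50.9% for COL3A1, and these shares are the background for the members. In the COL3A1 gate 6 of 9 rows were called, 5 higher against 25% of all genes and 1 lower against 25.9%. In the POU5F1 gate 8 were called, 1 higher (28% of all genes) and 7 lower (25.9%). In CRABP1 5 were called, 0 higher (19.1%) and 5 lower (19.8%). In GABRP 5 were called, 2 higher (24.7%) and 3 lower (22.9%), and in TP63 7, 3 higher (22.6%) and 4 lower (22.1%). The labels give 2 libraries and not separate experiments, so p-values measure the spread between sums of these libraries.

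Most of the receptor side stood highest in the COL3A1 gate: both LIFR loci, IL6ST and CNTFR rose there, with SOCS3, while IL6R was lowest. STAT3 and JAK2 were not called there.

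**Figure D1:**
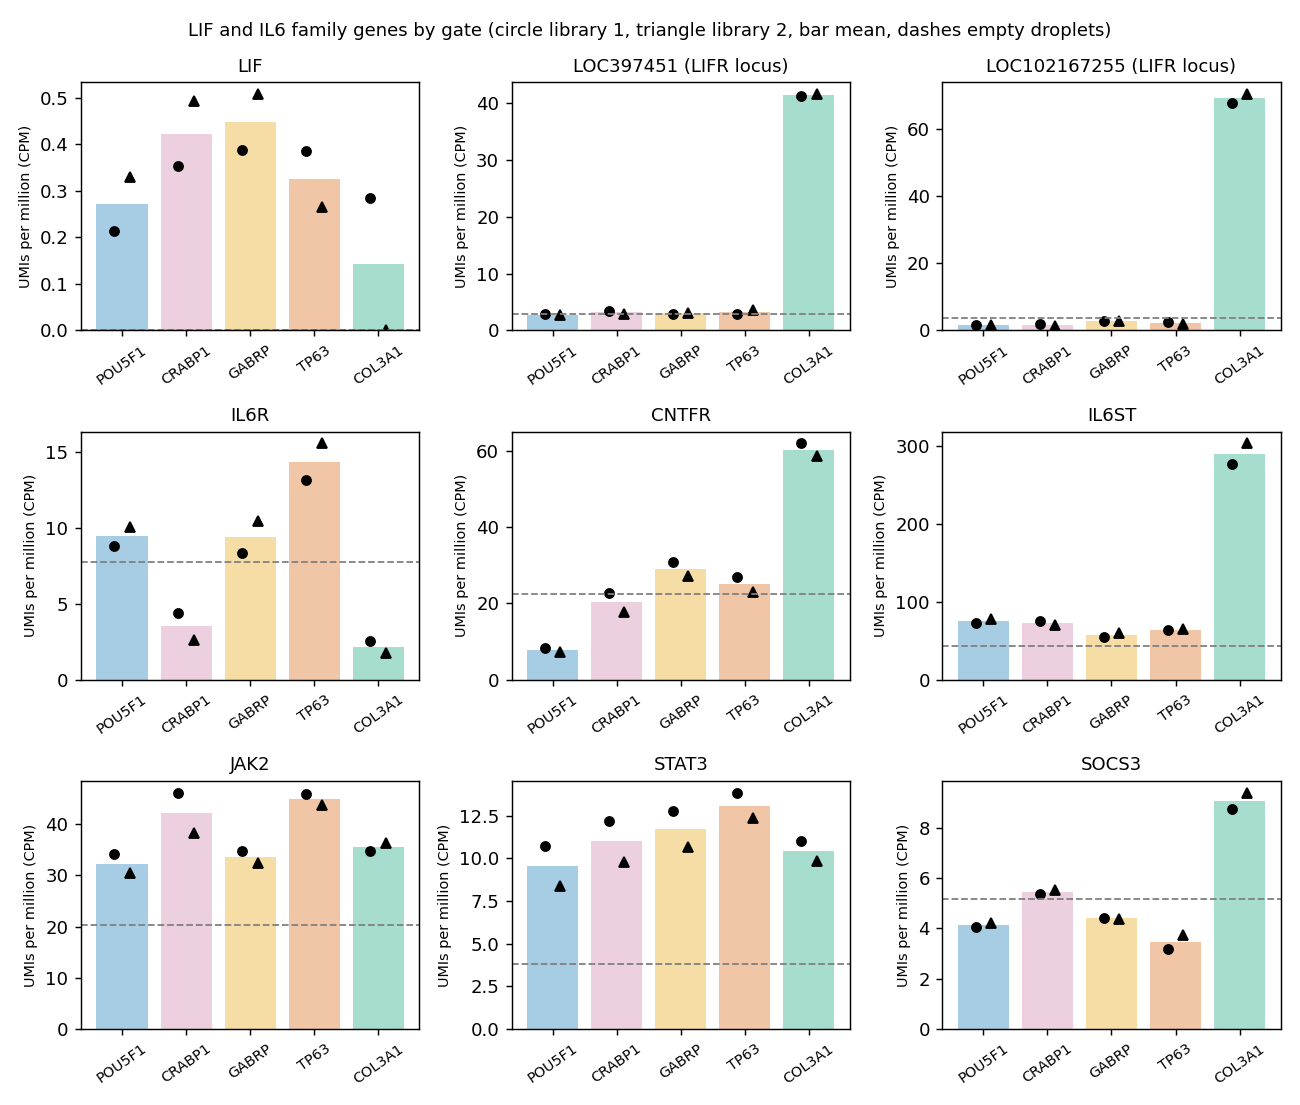
Levels of the 9 gene rows in CPM on linear axes from 0, by gate, with a circle for library 1, a triangle for library 2, a bar for their mean and a dashed line for the mean level in empty droplets. Both LIFR loci, CNTFR, IL6ST and SOCS3 were highest in the COL3A1 gate in both libraries, IL6R was highest in the TP63 gate, and STAT3 lay between 8.41 and 13.9 CPM throughout.

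LIF, the ligand, was close to the limit of detection. In libraries 1 and 2 it stood at 0.213 and 0.330 CPM in POU5F1, 0.353 and 0.494 in CRABP1, 0.388 and 0.508 in GABRP, 0.385 and 0.266 in TP63, and 0.284 and 0 in COL3A1, from 0 to 29 UMIs a sum. In the COL3A1 gate of library 2, 0 of 476 cells had a LIF UMI, which allows a share of up to 0.63% of cells with a UMI (3 counts of the total) and does not bound the cells that express the gene. All 10 sums lay between 0 and 0.508 CPM, and no difference among the 5 gates was called (adjusted p = 0.31, edgeR). Among the 3 genes most like it over the 10 sums were SLC26A3 and CBLC (Pearson r of log2 CPM 0.956 and 0.931), a description that rests on these few UMIs. Barcodes with 10 to 100 UMIs, taken as empty droplets, held 0 LIF UMIs in both libraries, which allows up to 1.83 and 1.28 CPM and so does not bound the cells' level.

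LIFR, the specific chain of the LIF receptor, was found mainly in the COL3A1 gate. LOC102167255 stood at 68.0 and 70.5 CPM there in libraries 1 and 2, against 1.32 to 2.87 CPM in the 8 other sums. LOC397451 stood at 41.2 and 41.6 CPM, against 2.77 to 3.61 CPM. For both loci the COL3A1 sums lay far above all others and the libraries agreed closely. Against the mean of the other gates the log2 fold change was 5.15 (SE 0.085, adjusted p = 3.5e-12, edgeR) for LOC102167255 and 3.81 (SE 0.080, adjusted p = 1.9e-11, edgeR) for LOC397451. In empty droplets the loci stood at 3.60 and 2.83 CPM on average, which rest on 13 and 12 UMIs over both libraries, a level of the same order as in the other 4 gates.

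Among those other 4 gates LOC397451 differed little, while LOC102167255 differed in 5 of 6 pairs. Its sums there were of the order of empty droplets (5.49 and 1.71 CPM in libraries 1 and 2). What part RNA from outside the cells had in these differences was not tested. Between pairs of gates 41.8% (POU5F1 and CRABP1), 54.4% (POU5F1 and GABRP), 53.4% (POU5F1 and TP63), 54.3% (POU5F1 and COL3A1), 47.1% (CRABP1 and GABRP), 42.1% (CRABP1 and TP63), 42.8% (CRABP1 and COL3A1), 19.3% (GABRP and TP63), 51.4% (GABRP and COL3A1) and 50.5% (TP63 and COL3A1) of all genes were called. For LOC397451 none of the 6 pairs without COL3A1 was called, with the lowest adjusted p of 0.11 (edgeR). LOC102167255 was higher in the GABRP gate than in POU5F1 by 0.97 (SE 0.15, adjusted p = 0.00022, edgeR), than in CRABP1 by 1.12 (SE 0.21, adjusted p = 0.00088) and than in TP63 by 0.46 (SE 0.15, adjusted p = 0.047) on the log2 scale. It was also higher in TP63 than in POU5F1 and CRABP1, by 0.51 (adjusted p = 0.023) and 0.65 (adjusted p = 0.034). Both loci were called lower in each of these 4 gates when the COL3A1 gate was part of the comparison. In a comparison without that gate, chosen after seeing the data, LOC397451 was called in none of them, and LOC102167255 was still called lower in POU5F1 (-0.44, adjusted p = 0.025, edgeR) and CRABP1 (-0.64, adjusted p = 0.023) and was not called in TP63 (0.23, adjusted p = 0.21). In GABRP it was then higher by 0.85 (adjusted p = 0.0002, edgeR), while the 9 alternatives that kept the COL3A1 gate gave it as lower there, from -0.71 to -0.26 (adjusted p of 0.00084 to 0.15). In that comparison 5 rows were called for POU5F1 (52.9% of all genes), 2 for CRABP1 (42.3%), 3 for GABRP (45.3%) and 5 for TP63 (40.7%). In POU5F1, IL6R (0.27, adjusted p = 0.13, with 6e-06 to 0.13 over 10 alternatives) and SOCS3 (-0.11, adjusted p = 0.40, with 0.0021 to 0.40) lost their calls there, and the 1 higher row was then IL6ST.

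The genes whose levels over the 10 sums were most like LOC397451 were CD93, HOXD10 and ASB9 (r 0.998, 0.996 and 0.994), and for LOC102167255 they were TMEM135, EMILIN2 and BAMBI (0.995, 0.994 and 0.993). The loci correlated with each other at 0.99. All these values share the 2 libraries and are dominated by the COL3A1 gate, and are given as a description.

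The COL3A1 gate was not uniform for LIFR. It was divided, after seeing the data, at 4 UMIs of MYL7, a myosin light chain gene of heart muscle. By that division MYL7 stood at 499 and 527 CPM in the cells at or above that number and at 32.7 and 39.2 CPM under it. Empty droplets held 94.5 and 72.9 CPM of MYL7. LOC102167255 was at 44.6 and 46.9 CPM in the 231 and 146 cells at or above that number and at 84.6 and 82.2 CPM in the 380 and 330 cells under it. LOC397451 was at 28.3 and 26.8 CPM in the former and 50.4 and 49.0 CPM in the latter. Median depth was 25147 and 21206.5 UMIs in the former and 21883.5 and 19931.5 UMIs in the latter, and the part of depth or of free RNA in this division was not tested.

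IL6ST, the shared transducer, was present in every gate and highest in COL3A1. It stood at 278 and 304 CPM there, against 54.9 to 78.4 CPM in the 8 other sums, and the groups did not overlap. The log2 fold change was 2.15 (SE 0.046, adjusted p = 1.9e-11, edgeR). Of the 6 pairs among the other gates, 2 were called, POU5F1 above GABRP by 0.26 (SE 0.065, adjusted p = 0.0052, edgeR) and POU5F1 above TP63 by 0.19 (SE 0.065, adjusted p = 0.027). Against the mean of all 4 others, however, POU5F1 was called lower, by -0.35 (adjusted p = 0.00014, edgeR), and with the COL3A1 gate left out it was called higher, by 0.20 (adjusted p = 0.0065). The 9 alternatives that kept that gate gave it as lower, from -0.41 to -0.27 (adjusted p of 3.8e-08 to 0.00057). The level in empty droplets was 44.5 and 43.1 CPM, below every gate. The most similar genes over the 10 sums were IVNS1ABP, PLA2G4E and B4GALT4 (r 0.997, 0.991 and 0.990).

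CNTFR, the chain that binds ciliary neurotrophic factor, differed in level between all 5 gates. It was lowest in POU5F1 (8.27 and 7.20 CPM), followed by CRABP1 (22.9 and 17.8 CPM), TP63 (27.0 and 23.1 CPM), GABRP (30.8 and 27.2 CPM) and COL3A1 (62.0 and 58.6 CPM). Each neighbouring pair in this order differed by the test. POU5F1 lay below CRABP1 by -1.28 (SE 0.13, adjusted p = 1.1e-05, edgeR), CRABP1 below TP63 by -0.47 (SE 0.12, adjusted p = 0.0060) and GABRP below COL3A1 by -0.97 (SE 0.10, adjusted p = 6.4e-06). GABRP lay above TP63 by 0.32 (SE 0.099, adjusted p = 0.044), where the nearest sums lay at 27.2 and 27.0 CPM. For CRABP1 and TP63 the nearest sums lay at 22.9 and 23.1 CPM. Empty droplets held 29.3 and 15.8 CPM, and the COL3A1 sums lay above both of these values and the POU5F1 sums below both. The most similar genes were FN1, DISC1 and CEP85L (r 0.991 each).

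IL6R, the chain specific to IL-6, had a different order. It stood at 13.1 and 15.6 CPM in TP63, 8.83 and 10.0 in POU5F1, 8.37 and 10.5 in GABRP, 4.41 and 2.63 in CRABP1, and 2.56 and 1.77 in COL3A1. TP63 lay above all other sums, and CRABP1 and COL3A1 lay below the remaining 3 gates. TP63 was higher than the mean of the others by 1.51 (SE 0.13, adjusted p = 3.4e-06, edgeR) and COL3A1 was lower by -1.81 (SE 0.23, adjusted p = 3.4e-05). Neither POU5F1 and GABRP (log2 difference -0.14, SE 0.16, adjusted p = 0.48) nor CRABP1 and COL3A1 (0.42, SE 0.32, adjusted p = 0.32) were told apart. The gate with the highest LIFR, CNTFR and IL6ST was thus the one with the lowest mean IL6R, at a level below that of the empty droplets (6.10 and 9.38 CPM). The most similar genes were TBC1D2, PLCG2 and GALNT3 (r 0.984, 0.980 and 0.975).

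**Figure D2:**
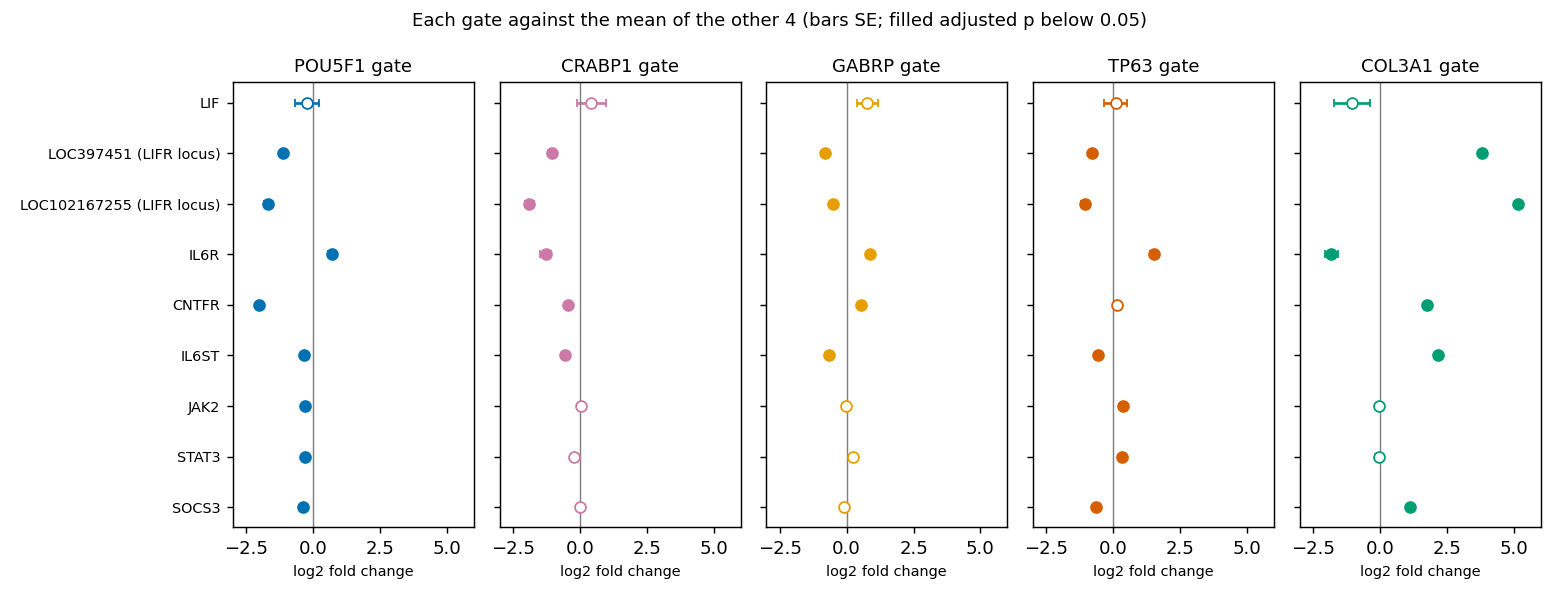
Log2 fold change of each of the 9 gene rows in each gate against the mean of the other 4 gates, with bars for the SE (often smaller than the point) and filled points for an adjusted p below 0.05. The LIFR loci reached 3.81 and 5.15 in the COL3A1 gate and IL6R fell to -1.81, while STAT3 and JAK2 lay between -0.32 and 0.35 in all 5 gates.

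The share of cells with a UMI set the COL3A1 gate apart as the levels did. Since deeper cells show more genes, each cell was thinned to 9800 UMIs, which every cell reaches. A UMI of either LIFR locus was then found in 47.8% (95% exact binomial interval 43.8 to 51.8) and 50.8% (46.3 to 55.4) of the cells of the COL3A1 gate. In the other gates it was found in 2.22% to 6.65% of cells. Unthinned, the shares were 70.0% and 67.0% in COL3A1 and 10.1% to 16.0% elsewhere. Intervals cover counting error only.

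The other chains divided the cells less sharply. IL6ST was found in 86.6% and 87.6% of thinned COL3A1 cells and in 38.6% to 48.8% of the others. CNTFR was found in 45.0% and 44.5% of thinned COL3A1 cells, and in 6.78% and 6.06% of thinned POU5F1 cells. IL6R was found in 10.0% and 11.6% of thinned TP63 cells and in 1.47% and 0.84% of thinned COL3A1 cells.

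LIFR, IL6R and CNTFR each signal together with IL6ST, so the share of cells with IL6ST and each of them was compared with the product of the single shares. Joint detection of CNTFR with LIFR was not examined, so these shares do not describe complete receptors. In the COL3A1 gate, LIFR and IL6ST were found together in 40.9% and 45.6% of thinned cells, where the product was 41.4% and 44.5%. CNTFR and IL6ST were found together in 38.6% and 39.5%, where the product was 39.0% and 39.0%. IL6R and IL6ST were found together in 3.73% and 4.91% of TP63 cells, where the product was 4.08% and 4.89%. In the other gates joint detection lay on either side of the product. LIFR and IL6ST were found together in 4.16% and 2.41% of CRABP1 cells, where the product was 3.24% and 1.63%, and in 1.40% and 1.73% of POU5F1 cells, where it was 1.01% and 1.74%. IL6R and IL6ST were found together in 4.56% and 4.48% of POU5F1 cells, where the product was 3.41% and 3.92%, and in 3.25% and 3.10% of GABRP cells, where it was 2.63% and 3.25%. No test was made of these differences.

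**Figure D3:**
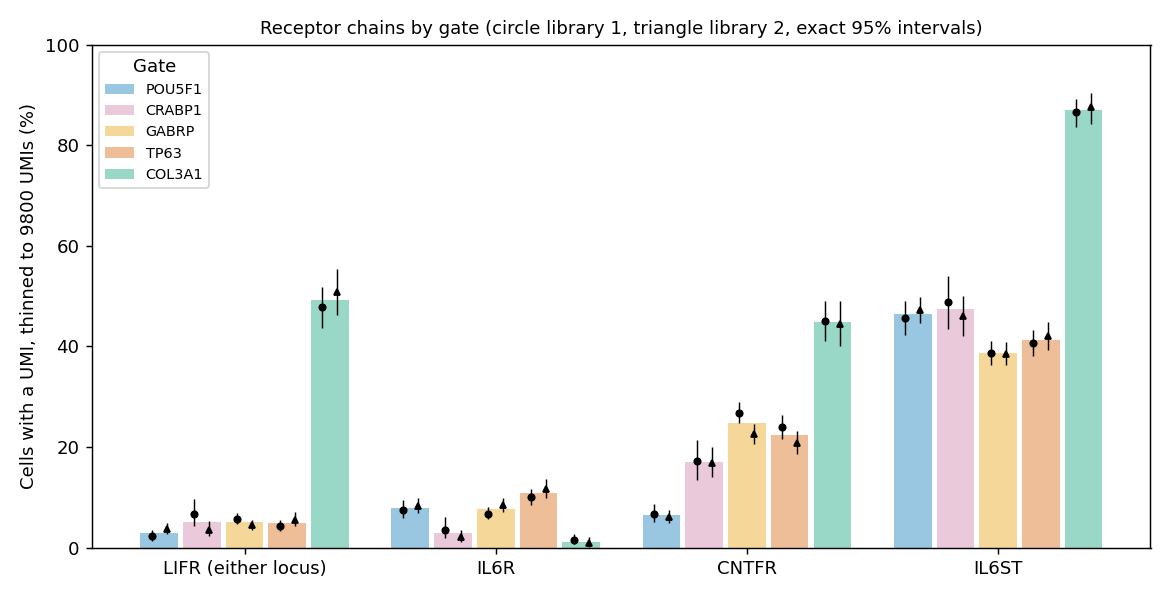
Share of cells with a UMI of each receptor chain after thinning to 9800 UMIs, in percent, with a bar for the mean of both libraries, a circle for library 1, a triangle for library 2 and exact binomial intervals. LIFR was found in 47.8% and 50.8% of COL3A1 cells and in at most 6.65% of the cells of any other gate, while IL6R was lowest in COL3A1 cells at 1.47% and 0.84%.

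JAK2, the kinase, varied within a narrow range. It stood at 45.9 and 43.7 CPM in TP63 and 46.1 and 38.2 in CRABP1, and at 30.4 to 36.4 CPM in the 6 sums of the other gates. TP63 was higher than the mean of the others by 0.35 (SE 0.059, adjusted p = 0.0005, edgeR) and POU5F1 lower by -0.31 (SE 0.062, adjusted p = 0.0013). The remaining gates were not called, but without TMM scaling factors JAK2 was called higher in CRABP1 (0.21, adjusted p = 0.041, with values of -0.05 to 0.21 and adjusted p of 0.041 to 0.98 over 10 alternatives) and lower in GABRP (-0.19, adjusted p = 0.033, with values of -0.19 to 0.02 and adjusted p of 0.033 to 0.83), the gates in which the median log2 fold change of all genes was then 0.16 and -0.17, against 0.00 and -0.02 with the factors. Empty droplets held 20.7 and 20.0 CPM. The most similar genes were AKAP10, AP1G1 and UBR3 (r 0.968, 0.967 and 0.952).

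STAT3, the transcription factor on which these receptors converge, varied little. The sums were 10.7 and 8.41 CPM in POU5F1, 12.2 and 9.82 in CRABP1, 12.8 and 10.7 in GABRP, 13.9 and 12.4 in TP63, and 11.0 and 9.83 in COL3A1. Library 1 was higher than library 2 in all 5 gates, and the TP63 sums lay above those of POU5F1, CRABP1 and COL3A1 while the other gates overlapped. TP63 was called higher by 0.32 (SE 0.10, adjusted p = 0.025, edgeR) and POU5F1 lower by -0.32 (SE 0.11, adjusted p = 0.027). Over 10 alternatives these calls had adjusted p of 0.00064 to 0.091 and 0.00085 to 0.088, and they were lost under 1 and 2 of them. The COL3A1 gate was at -0.05 (SE 0.13, adjusted p = 0.77). GABRP lay just outside the threshold (0.25, SE 0.10, adjusted p = 0.059), and it was called higher under 6 of 10 alternatives, with the library as a block among them (0.25, adjusted p = 0.0028, with 0.0028 to 0.44 over all 10). Empty droplets held 4.27 and 3.41 CPM, below every gate. The annotation gives STAT3 1 transcript with a 3′ UTR of 27 bases, and reads beyond an annotated end are not counted. The most similar genes were SYNJ1, MAP3K3 and NKX2-3 (r 0.944, 0.939 and 0.938), a description only, since STAT3 varied little over the 10 sums.

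SOCS3, the inhibitor induced by STAT3, was highest in the COL3A1 gate, as were LIFR, CNTFR and IL6ST, and lowest in TP63, where IL6R was highest. It stood at 8.75 and 9.39 CPM in COL3A1, against 3.16 to 5.54 CPM in the 8 other sums, with no overlap. The log2 fold change was 1.11 (SE 0.11, adjusted p = 3e-06, edgeR). TP63 was lowest (3.16 and 3.73 CPM), at -0.65 against the mean of the others (SE 0.10, adjusted p = 0.00031, edgeR). With the COL3A1 gate left out it was at -0.40 (adjusted p = 0.010, edgeR). By pairs, CRABP1 and GABRP lay above TP63 by 0.52 and 0.46 (adjusted p = 0.011 and 0.023, edgeR). POU5F1 and TP63 were not told apart (0.22, SE 0.13, adjusted p = 0.17, edgeR). CRABP1 (5.38 and 5.54 CPM), GABRP (4.41 and 4.38 CPM) and POU5F1 (4.06 and 4.20 CPM) were not told apart by any of their pairs, with adjusted p of 0.10 to 0.73. Empty droplets held 6.10 and 4.27 CPM from 10 UMIs each. In library 1 the 4 lower gates all lay below that level, and in library 2 POU5F1 and TP63 did. Among the 3 most similar genes were TRAPPC1 and TMED3 (r 0.990 and 0.989).

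Of a list of 55 further genes of the pathway, 54 are in the files and 49 were tested. In the COL3A1 gate 19 were called higher and 11 lower (61.2% against 50.9% of all genes), with a median log2 fold change of 0.05 against -0.03 over all genes. In the POU5F1 gate 9 were higher and 22 lower (63.3% called against 53.9% of all genes, of which 28% higher and 25.9% lower), with a median of -0.23 against 0.00. In CRABP1 13 were higher and 12 lower (51.0% called against 38.9% of all genes). In GABRP the counts were 16 and 9 (51.0% against 47.6%), and in TP63 18 and 9 (55.1% against 44.7%).

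Of the other receptors, OSMR and IL11RA were highest in the COL3A1 gate, as LIFR was. OSMR, the oncostatin M receptor, rose by 1.72 (SE 0.25, adjusted p = 0.00011, edgeR) from a low level (2.16 and 2.39 CPM against 0.449 to 1.25 CPM). IL11RA, the specific chain for IL-11, rose by 1.27 (50.6 and 53.9 CPM, with no overlap with the other gates), while IL27RA fell by 0.49 on the log2 scale.

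Among the ligands IL6 was the one that passed the test in all 5 gates. It rose in GABRP (1.39, SE 0.18), POU5F1 (1.11, SE 0.19) and TP63 (0.79, SE 0.19) and fell in CRABP1 (-1.70, SE 0.32) and COL3A1 (-1.58, SE 0.32). Its level was low throughout, between 0.443 and 3.28 CPM. IL11 rose in CRABP1 by 1.43 (SE 0.27), and OSM, oncostatin M, fell in POU5F1 by 1.55 on the log2 scale at no more than 0.568 CPM in any sum.

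Of the other kinases and STATs, 5 of 7 were lower in POU5F1, where 25.9% of all genes were. STAT6, which serves IL-4 and IL-13, rose in GABRP by 1.21 (SE 0.13). In COL3A1 4 of 7 rose (25% of all genes) and none fell (25.9%), with STAT5B at 0.69.

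The inhibitor list held the largest change among the 49 genes. SOCS1, which blocks JAK kinases directly, stood at 248 and 285 CPM in COL3A1 and at 13.5 to 30.0 CPM in the 8 other sums, a log2 fold change of 3.91 (SE 0.055, adjusted p = 1.3e-12, edgeR). SOCS2, an inhibitor of growth hormone signalling, had another order, with 1.09 (SE 0.068) in GABRP, 0.92 (SE 0.070) in TP63, -0.88 (SE 0.093) in COL3A1 and -0.98 (SE 0.080) in POU5F1. SOCS1 was called lower in CRABP1, TP63 and POU5F1, calls that again include the COL3A1 gate in their comparison.

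The list of known STAT3 targets did not move in 1 direction. In COL3A1 10 of 19 rose and 5 fell, against 25% and 25.9% of all genes, led by MYC (2.03, SE 0.093, 40.4 and 49.4 CPM against 8.60 to 17.5 CPM) and against them KLF5 (-1.19, SE 0.14), an epithelial and pluripotency factor. In GABRP 11 rose and 4 fell, against 24.7% and 22.9% of all genes, led by CEBPD (1.43, SE 0.054). The median of the list was 0.38 in COL3A1 and 0.37 in GABRP, against -0.03 and -0.02 over all genes. In POU5F1 4 rose and 10 fell (28% and 25.9% of all genes), with a median of -0.26, in CRABP1 3 rose and 8 fell (19.1% and 19.8%), with a median of -0.27, and in TP63 6 rose and 3 fell (22.6% and 22.1%), with a median of 0.04. CCND1, the cyclin of early G1, rose in POU5F1 (1.27, SE 0.064), CRABP1 (0.89, SE 0.074) and COL3A1 (0.73, SE 0.076) and fell in TP63 (-1.82, SE 0.083) and GABRP (-1.07, SE 0.076). In POU5F1 the immediate early gene IER3 fell by 1.67 on the log2 scale and the kinase gene PIM1 rose by 0.64. TFCP2L1, a naive pluripotency factor in mouse, rose in TP63 by 1.17 (SE 0.27) at no more than 1.86 CPM. Its TP63 sums (1.86 and 1.70 CPM) overlapped those of GABRP (1.83 and 1.31 CPM), so it was no trait of TP63 alone. These targets are shared with other pathways.

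**Figure D4:**
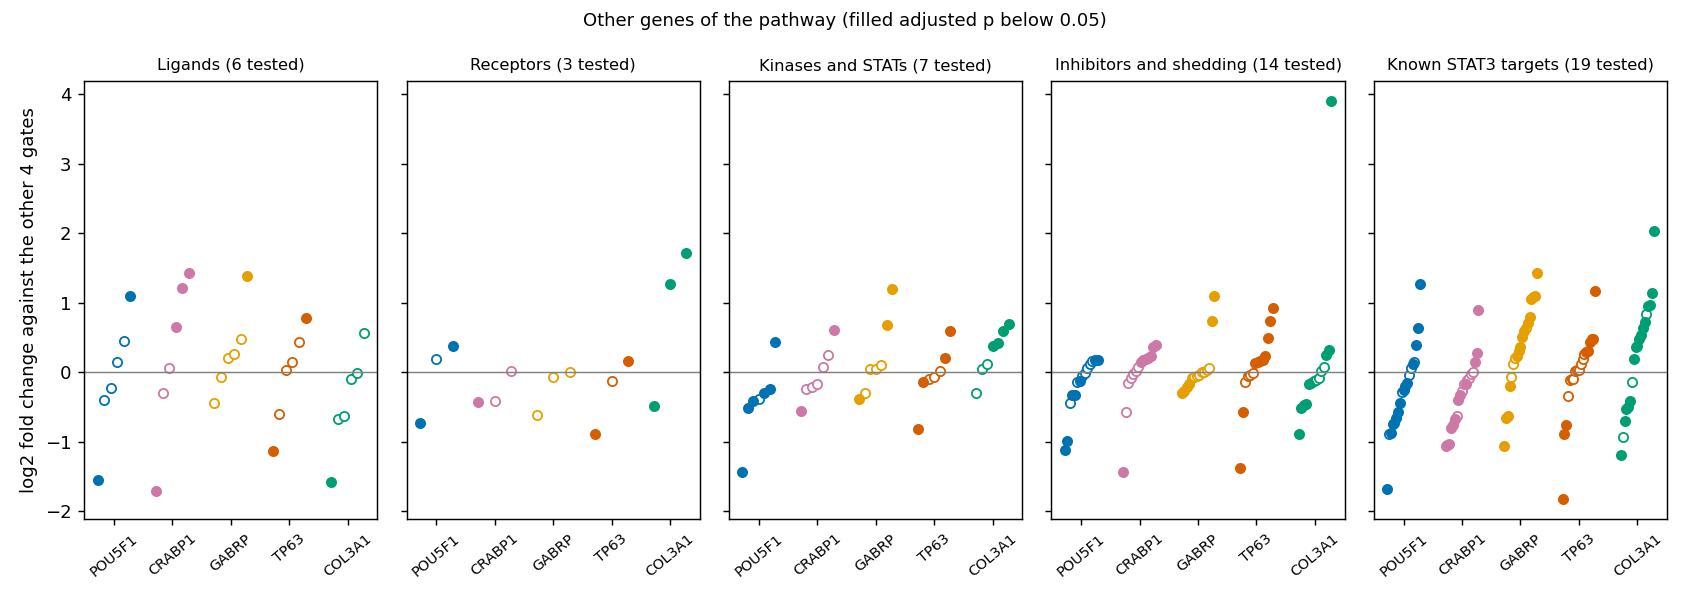
Log2 fold change of 49 further genes of the pathway in each gate against the mean of the other 4, by role, with filled points for an adjusted p below 0.05. SOCS1 stands alone at 3.91 among the inhibitors in the COL3A1 gate, while the STAT3 targets spread to both sides of 0 in every gate.

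In pESCs, the cells from which blastoids are made, the levels are FPKM, fragment counts scaled by exon length and library total, which can be compared between genes. Depth is unknown, there is 1 group, and no test was made. The names of the 3 libraries differ (IVF or PA, P7 or P25), so the SD may hold such differences and not only the spread of replicates. In bulk RNA, fewer cells that express a gene and less RNA per cell cannot be told apart. STAT3 was highest of the members. Its level was 9.61, 12.4 and 11.2 FPKM (mean 11.1 ± 1.41, SD, n = 3), where values are given in the order of IVFP25, PA_4P7 and PAP25 here and for the genes that follow. CNTFR stood at 10.4, 9.39 and 10.8 FPKM (10.2 ± 0.742), and the ranges of the pair overlapped.

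SOCS3 (6.09, 9.28 and 7.82 FPKM, mean 7.73 ± 1.59) and IL6ST (5.35, 7.14 and 7.85 FPKM, mean 6.78 ± 1.29) followed and overlapped each other. JAK2 was lower, at 2.56, 2.76 and 3.34 FPKM (2.89 ± 0.405), and IL6R lower again, at 1.20, 1.80 and 1.98 FPKM (1.66 ± 0.413). These groups did not overlap. Among the genes above 0, STAT3 lay at percentiles 69.1 to 72.7 and IL6R at 39.8 to 43.9.

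The LIF receptor and its ligand were at the bottom. LOC102167255 stood at 0.630, 0.900 and 1.32 FPKM (0.950 ± 0.347), which overlapped IL6R, and LOC397451 at 0.0586, 0.0975 and 0.103 FPKM (0.0865 ± 0.0243). LIF was at 0.153, 0.0616 and 0.0919 FPKM (0.102 ± 0.0465), which overlapped the second LIFR locus. The order STAT3 and CNTFR, then SOCS3 and IL6ST, then JAK2, then IL6R, then LOC102167255, then LIF and LOC397451 held for the means over the 3 libraries. The transcript of LOC397451 has 16164 bases and shares part of its sequence with the other locus, so its FPKM is uncertain.

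By transcript, STAT3 has a single annotated form. CNTFR came mainly from 1 of its forms (79.3% to 96.5% of its FPKM over the libraries), as did IL6R (87.7% to 90.5%), IL6ST (73.5% to 97.3%), SOCS3 (85.6% to 92.1%) and JAK2 (64.4% to 90.9%). Taking the highest form alone moved the mean by more than the SD over libraries for CNTFR (8.73 FPKM) and JAK2 (2.21 FPKM), and by less for the other members.

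**Figure D5:**
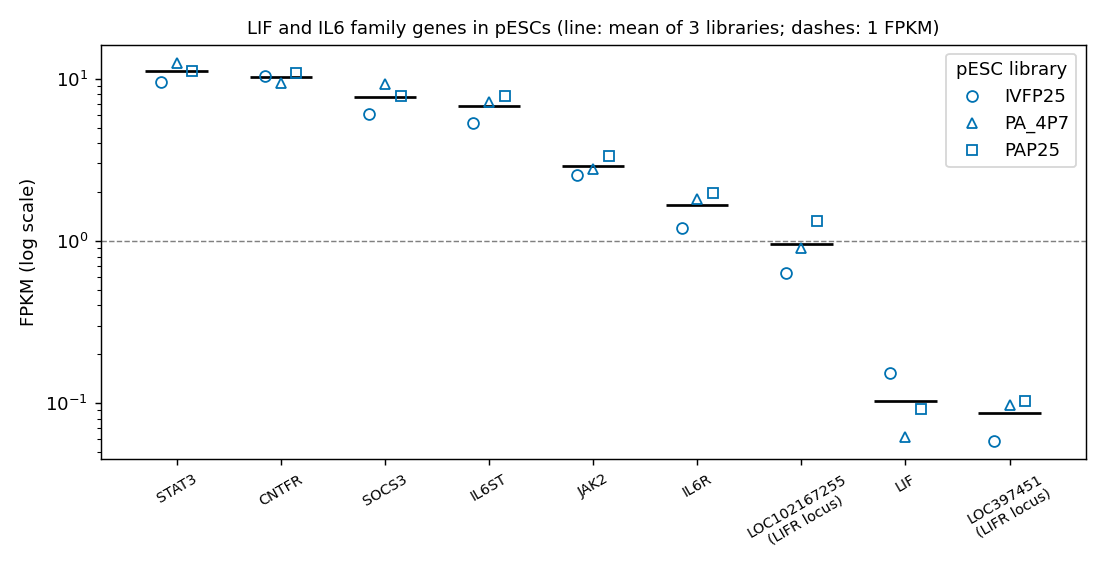
FPKM of the 9 gene rows in pESCs on a log axis, with a symbol per library and a line for the mean of 3 libraries. STAT3 and CNTFR lie near 10 FPKM, and LIF and LOC397451 near 0.1 FPKM.

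Of the 55 listed pathway genes, 54 are in the FPKM table. In pESCs 38 of them were at 1 FPKM or more in all 3 libraries, and IL27, OSM and CRLF2 were listed at 0 in all. IL6 itself stood at 0.546, 0 and 0.202 FPKM. TFCP2L1, the naive factor, was at 0.0886, 0 and 0.0457 FPKM, and MYC was at 17.9, 28.3 and 16.4 FPKM.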

How the data were processed

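Droplet scRNA-seq of day 6 blastoids (2 libraries) and bulk RNA-seq of pESCs (3 libraries) were used. The deposited count files hold UMI counts of every barcode, which the authors made with Cell Ranger 7.1.0 on susScr11. The deposited FPKM values, 1 per RefSeq transcript, were made by the authors with Trim Galore 0.6.4, HISAT2 2.2.1 and StringTie 2.2.1, and were summed here per symbol, with no filter and no pseudocount. The members and lists were chosen with earlier results of these data known.

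Cells, gates and thinning (seed 42) are as stated above. Sums were filtered with filterByExpr, scaled by TMM and tested in edgeR 4.0.16 (R 4.3.3) with 5 residual degrees of freedom. SE is the log2 fold change over the root of F. CPM are UMIs over all UMIs of the sum. The 5 sums from 1 library come from the same cells' preparation, and deviations of same-library sums from the means of their gates correlated at 0.0587 to 0.218 over 10 pairs of gates, so the library pairs the sums and was a block in an alternative. DESeq2 1.42.0 was another. On simulated counts for the COL3A1 comparison, 198 of 200 genes changed 2-fold (99%) were recovered, with 16 of 18216 unchanged genes called, among 18416 genes. The simulation gave all genes the same dispersion (0.0036) and no library effect, and changed only genes with ample counts in the smallest sum. Its rates therefore do not carry over to the measured data or to low rows such as LIF. Genes named from the pathway list are up to 3 per gate and direction with the largest change among those called, and per member the 3 genes with the highest correlation (prior count 2, symbols not beginning with LOC). These correlations are the highest of many over only 10 sums, carry no test, and do not show shared regulation. IL11RA, IL27RA, STAT5B, and the FPKM of MYC, IL6, TFCP2L1 and the genes at 0, were named after their values were seen. A few genes that this rule names are not reported here. Loci, promoters and the LIFR match (blastn 2.17.0) come from RefSeq Sscrofa11.1.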

Additional observations from a re-analysis of the deposited data

How the results depend on the processing

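The counts of genes called stayed within 1.5 times under every alternative run. The comparison without the COL3A1 gate was added after seeing the data. Of the 9 rows, with LIFR present as 2 loci, it called 5 in POU5F1 (52.9% of all genes called) and 2 in CRABP1 (42.3%). It called 3 in GABRP (45.3%) and 5 in TP63 (40.7%), where the comparison with that gate called 8, 5, 5 and 7 rows. By construction it removes the gate that set most of the lower calls. It reversed the sign of IL6ST in POU5F1 (0.20), CNTFR in CRABP1 (0.0069), LOC397451 in GABRP (0.15) and TP63 (0.16), and LOC102167255 in GABRP (0.85) and TP63 (0.23). Only IL6ST in POU5F1 (adjusted p = 0.0065, edgeR) and LOC102167255 in GABRP (adjusted p = 0.0002) were called in the new direction. The others lost their calls, with adjusted p of 0.21 to 0.97. The 9 other alternatives kept the calls of the COL3A1 gate, with log2 fold changes of 5.11 to 5.56 for LOC102167255, 3.75 to 4.03 for LOC397451, 2.11 to 2.30 for IL6ST, 1.72 to 1.95 for CNTFR, 1.07 to 1.22 for SOCS3 and -2.34 to -1.71 for IL6R. The replicate block added calls of STAT3 in GABRP (0.25, adjusted p = 0.0028, with 0.0028 to 0.44 over 10 alternatives) and CNTFR in TP63 (0.15, adjusted p = 0.011, with 0.0001 to 0.48 over 10 alternatives) and changed no other member's call. STAT3 in GABRP was also called under 5 further alternatives and CNTFR in TP63 under 3. Without TMM factors the share of higher calls moved from 49.1% to 75.4% in CRABP1 and from 51.8% to 30.6% in GABRP, STAT3 lost its call in POU5F1 (-0.28, adjusted p = 0.062, with 0.00085 to 0.088) and CNTFR lost its call in CRABP1 (-0.27, adjusted p = 0.059, with 5.7e-05 to 0.059 over the 9 alternatives that kept the COL3A1 gate). STAT3 also lost its call in POU5F1 with ungated cells added (adjusted p = 0.088) and in TP63 with cells of 1 gate alone (0.23, adjusted p = 0.091, with 0.00064 to 0.091), and LOC102167255 in GABRP with ungated cells added (-0.26, adjusted p = 0.15). With 1 library there are no residual degrees of freedom, so leaving a library out gave values only, and no called value changed sign. Of 45 log2 fold changes, 10 moved by at least the SD of the values so obtained without library 1, and 3 without library 2. LIF rests on at most 29 UMIs per gate and library.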
